A study of Mus musculus with 6 samples.

Results

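The ROR and REV-ERB nuclear receptors and the clock genes that they control through shared DNA elements were examined in the established osteoblastic line MC3T3-E1 of the mouse. The 9 genes were taken by symbol from the 43346 rows of the deposited table, and each matched 1 row. They are the receptor genes Rora, Rorb, Nr1d1 and Nr1d2 and the clock genes Arntl, Npas2, Clock, Cry1 and Nfil3. The 2 groups were the Rorβ-CRISPR (KO) line, labelled as edited in Rorb, and the MC3T3-Control line, with 3 libraries each. Both lines had been grown to confluence and then differentiated for 2 days in osteoblastic medium. The labels do not give the guide, the number of clones, what the control cells received, the time of day at harvest or any resetting of the clock. Nor do they say whether each replicate was a culture of its own, so the p-values rest on a spread between libraries that may be technical.

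RORα and RORβ are transcriptional activators, and REV-ERBα and REV-ERBβ, the products of Nr1d1 and Nr1d2, are repressors. Both kinds of receptor bind the same element, the RORE, an AGGTCA half-site with an A- and T-rich stretch before it, so that they compete for the same genes. In the circadian clock, this element controls Arntl, which encodes BMAL1, and further genes such as Npas2, Clock, Cry1 and Nfil3. BMAL1 pairs with CLOCK or NPAS2 to activate E-box genes, among them Nr1d1 and Nr1d2, which closes the loop. In bone, RORβ has been described as an inhibitor of osteoblast differentiation.

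Reads in genes numbered 34662707 to 42255967 in the Rorβ-CRISPR libraries and 40772380 to 42603315 in the control libraries. The authors had scaled the values as CPM with trimmed-mean (TMM) factors, without division by gene length. All 9 osteoblast markers examined, among them Runx2, Sp7 and Col1a1, had a value of at least 1 in every library. Their summed level was 42749 to 44092 in the Rorβ-CRISPR libraries and 72137 to 74604 in the control libraries, and most of it was Col1a1 and Col1a2. They differed in direction, with Col1a1, Col1a2, Sparc, Bglap and Spp1 lower and Runx2, Sp7, Alpl and Ibsp higher. Ibsp had 491 ± 26.7 CPM in Rorβ-CRISPR and 128 ± 3.82 CPM in control cells (SD, n = 3 each). Of markers of other cell types, the 4 chondrocyte markers summed to 224 to 238 CPM in the Rorβ-CRISPR libraries and 322 to 343 CPM in the control libraries, almost all from Col2a1 and Sox9, with Acan at 0. The 4 macrophage markers summed to 6.51 to 7.86 CPM in the Rorβ-CRISPR libraries and 7.19 to 7.37 CPM in the control libraries, mostly from Csf1r, with Emr1 at 0. The 3 muscle markers summed to 1.49 to 2.02 CPM in the Rorβ-CRISPR libraries and 6.19 to 6.98 CPM in the control libraries, all from Des, with Myod1 and Myog at 0. None of the 4 adipocyte, 3 endothelial or 4 neuron and retina markers reached a value of 1 in every library. Of all reads, the rows Yam1, AY036118 and Lars2, which collect ribosomal RNA, held 13.1% to 15.2% in the Rorβ-CRISPR libraries and 16.9% to 25.4% in the control libraries, with the highest share in control replicate 1. The part of these differences between the groups in the results below was not tested.

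To look for sequences like the element of the receptors, matches to the half-site and to the E-box were read from promoter windows. The windows were those of RefSeq on the mouse build GRCm38.p6. A match is one of letters only, and binding was not measured. Each window ran from 250 bases before to 50 bases after a start of transcription. All 9 genes matched, with 13 windows, since Arntl and Rorb have 2 listed starts each and Clock has 3. The sites below are printed on the strand of the gene, with the matched bases in capitals and the first transcribed base counted as position 0. On the opposite strand AGGTCA reads TGACCT.
Arntl, first site, chr7:113207493-113207522, plus strand: ttggtcggaaagTAGGTTAgtggtgcgaca
Arntl, second site, chr7:113207529-113207558, plus strand: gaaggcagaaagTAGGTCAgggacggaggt
Nfil3, match on the opposite strand, chr13:52981034-52981063, minus strand: ggcgctcggaacTGACCTActaacacacat
Nr1d2, chr14:18239166-18239195, minus strand: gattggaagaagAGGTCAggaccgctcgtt
Clock, match on the opposite strand, chr5:76303604-76303633, minus strand: agctttggcctcTGACCTgacagatgacag
Cry1, E-box, chr10:85185097-85185126, minus strand: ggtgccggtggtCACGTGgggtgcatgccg

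The Arntl sites began at positions -6 and 30 of the downstream of its 2 starts, and both are the extended half-site TAGGTNA. The second one was also the only match of a member to the full RORE consensus, which was present in windows of 0.459% of the 27025 genes with a window. TAGGTNA on either strand was present in Arntl and Nfil3, and in 9.51% of all genes. The plain half-site AGGTCA was present in 4 of the 9 genes (Arntl, Nfil3, Nr1d2 and Clock), and in 18.1% of all genes. TAGGTNA and AGGTCA overlap in the second Arntl site and in Nfil3. The REV-ERB dimer site, a repeat of AGGTCA with 2 bases between its copies, was in no window of the 9 genes and in 0.00740% of all genes. The E-box CACGTG, the element of BMAL1 and its partners, was present in Cry1 alone of the 9, and in 8.09% of all genes. The windows of Rora, Rorb, Nr1d1 and Npas2 held none of these letters, which says nothing of sites farther away.

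**Figure D1:**
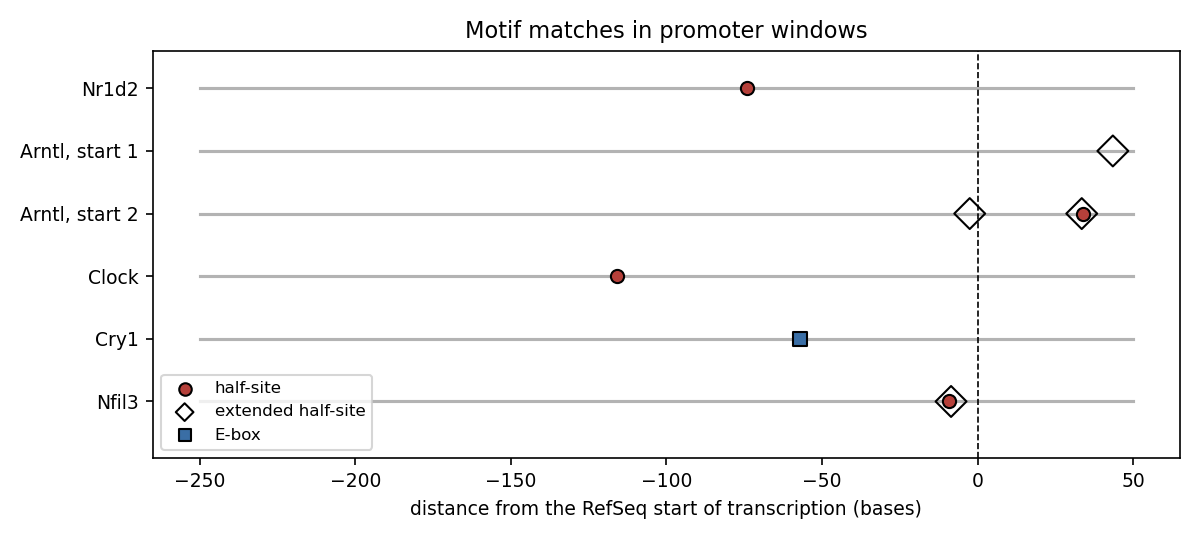
Positions of motif matches in the promoter windows of the genes that had any. The horizontal axis is the distance in bases from a RefSeq start of transcription (dashed line), circles are the half-site, open diamonds the extended half-site and the square an E-box. At the downstream Arntl start, the first extended half-site ends on the first transcribed base and the second lies after it.

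The activator genes of the ROR family moved in opposite directions. Rora, the gene of RORα, had 30.4, 34.1 and 33.6 CPM in the Rorβ-CRISPR libraries, against 87.8, 92.4 and 90.3 CPM in the control libraries. The groups did not overlap, and the mean was 32.7 ± 2.03 CPM in Rorβ-CRISPR and 90.2 ± 2.27 CPM in control cells (SD, n = 3 each). The log2 fold change was -1.44 (SE 0.043, limma-trend adjusted p = 3.60e-33), so Rora fell. Between 1122 and 3649 reads stood behind each of these values. In bulk RNA, fewer cells that express a gene and less of its RNA per cell cannot be told apart. The antisense gene Gm15511, which overlaps Rora, had 18, 23 and 15 reads in the Rorβ-CRISPR libraries and 44, 63 and 47 in the control libraries. It shares 82 exonic bases with Rora, and the use of strand in counting is not given. Reads of the 2 genes there cannot be told apart. Rorb, the gene that the labels give as the target, had 1.87, 1.69 and 2.52 CPM in the Rorβ-CRISPR libraries, from 69, 78 and 111 reads. In the control libraries it had 0.027, 0.078 and 0 CPM, from 1, 3 and 0 reads. Every library labelled as a knockout thus held more Rorb RNA than any control library (log2 fold change 1.54, SE 0.128, limma-trend adjusted p = 3.12e-15). Its fold on the log2(value + 1) scale understates the ratio of summed reads, which was 58.8 (exact 95% counting interval 22.7 to 217, for counting error only). No control library reached the value of 1 that testing required, so Rorb entered the test through the Rorβ-CRISPR libraries alone. Counts of a gene cannot show which bases were edited, and directions are given between the libraries as labelled.

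Divided by the joint exon length in the GENCODE M21 annotation, the summed RNA of Rora and Rorb was lower in the Rorβ-CRISPR libraries. Exon lengths were 13071 bases for Rora and 11076 for Rorb. The summed level was 2.49, 2.76 and 2.80 CPM per kb in the Rorβ-CRISPR libraries and 6.72, 7.07 and 6.91 CPM per kb in the control libraries. The Rorβ-CRISPR mean was 38.9% of the control mean, with no overlap between the groups (exact permutation test, two-sided, p = 0.1, the smallest that 3 against 3 libraries allow). Rorb made up 6.77%, 5.53% and 8.13% of that sum in the Rorβ-CRISPR libraries, and 0.0363%, 0.0994% and 0% in the control libraries. Per length, Rora therefore exceeded Rorb in all 6 libraries, also where Rorb was highest. The lengths come from a later build than the mm9 of the authors, and the isoforms in use were not measured.

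The repressor genes changed less. Nr1d1, the gene of REV-ERBα, had 35.6, 34.9 and 35.3 CPM in the Rorβ-CRISPR libraries, against 47.9, 47.8 and 44.4 CPM in the control libraries. The groups did not overlap, and Nr1d1 fell by 24.4% (log2 fold change -0.39, SE 0.046, limma-trend adjusted p = 1.06e-10). Nr1d1 was at -0.17 (adjusted p = 0.0213) with library size only, a scaling that put the median of all rows at 0.21. Its 3′ end overlaps that of Thra, a thyroid hormone receptor gene on the other strand, over 263 exonic bases in the GENCODE M21 annotation. Thra fell as well, with 192 ± 5.65 CPM in Rorβ-CRISPR and 292 ± 0.496 CPM in control cells (SD, n = 3 each; log2 fold change -0.60, limma-trend adjusted p = 1.19e-25), and was at -0.37 with library size only. Whether the counting used strand is not given, so reads of the shared stretch cannot be told apart. Nr1d2, the gene of REV-ERBβ, had 40.1, 41.4 and 38.0 CPM in the Rorβ-CRISPR libraries, against 46.6, 44.3 and 47.6 CPM in the control libraries. The groups were 2.85 CPM apart at their nearest values. Nr1d2 was called lower, at -0.21 on the log2 scale (SE 0.045, limma-trend adjusted p = 7.72e-05), but this direction flips with the scale used. With library size only, the log2 fold change was 0.012 and not called. On chromosome 14, where Nr1d2 lies, 340 of 401 tested genes were lower, with a median of -0.53. Centred on its chromosome, Nr1d2 was at 0.30 (adjusted p = 9.08e-08, with a range of 9.08e-08 to 0.880 over 17 alternatives).

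**Figure D2:**
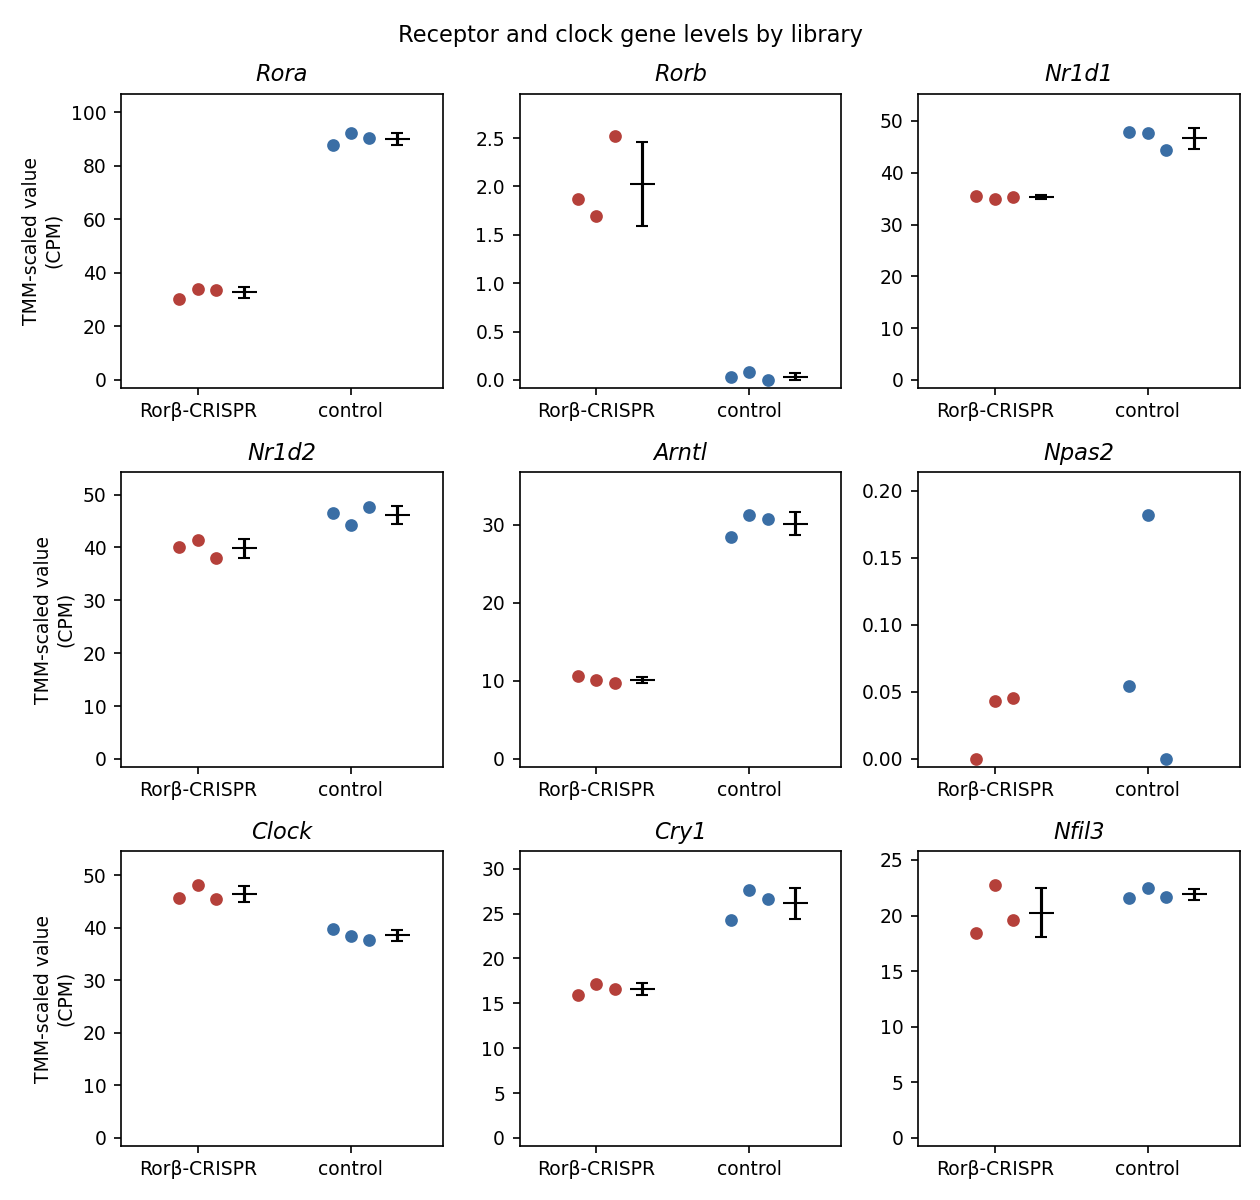
TMM-scaled value (CPM) of each gene in each library, with Rorβ-CRISPR at the left and control at the right of each panel. Points are libraries, and bars are the mean and SD of 3 libraries, left out for Npas2, where a library held at most 7 reads. Rora, Arntl, Cry1, Nr1d1 and Nr1d2 lay lower in all 3 Rorβ-CRISPR libraries than in any control library, and Rorb and Clock lay higher.

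The positive limb of the clock was unequal, with Arntl lower and its partner Clock not. Arntl had 10.6, 10.1 and 9.78 CPM in the Rorβ-CRISPR libraries, against 28.5, 31.3 and 30.7 CPM in the control libraries. That is a decrease by 66.3%, with groups 17.9 CPM apart at their nearest values (log2 fold change -1.48, SE 0.063, limma-trend adjusted p = 1.62e-26). Its spread between the Rorβ-CRISPR libraries was 4.01% of the mean, where 391 to 466 reads alone give 4.83%. Between the control libraries it was 5.02%, where 1052 to 1242 reads alone give 2.93%. Clock had 45.7, 48.1 and 45.5 CPM in the Rorβ-CRISPR libraries, against 39.7, 38.4 and 37.6 CPM in the control libraries. The groups did not overlap, and Clock was called higher at 0.26 (SE 0.045, limma-trend adjusted p = 1.25e-06), and at 0.48 with library size only. Chromosome 5, on which Clock lies, had a median of 0.21, with 487 of 779 tested genes higher. Centred on that chromosome, Clock was at 0.056 and no longer called (adjusted p = 0.273, with a range of 2.41e-11 to 0.273 over 17 alternatives). Npas2, the gene of the alternative partner of BMAL1, had few reads, with 0, 2 and 2 in the Rorβ-CRISPR libraries and 2, 7 and 0 reads in the control libraries. It did not pass the filter. The ratio of its summed reads, 0.405, had an exact 95% interval (counting error only) from 0.0912 to 1.45, so a difference was not detectable at this depth.

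Of the clock repressors, Cry1 fell and Nfil3 was not called. Cry1, whose product inhibits the BMAL1 complex, had 15.9, 17.2 and 16.6 CPM in the Rorβ-CRISPR libraries, against 24.3, 27.6 and 26.6 CPM in the control libraries. The groups did not overlap, and the mean was lower by 36.6% (log2 fold change -0.63, SE 0.060, limma-trend adjusted p = 4.12e-13), and -0.41 with library size only. Nfil3, which encodes the D-box repressor E4BP4, had 18.5, 22.8 and 19.6 CPM in the Rorβ-CRISPR libraries, against 21.6, 22.5 and 21.7 CPM in the control libraries. Its groups overlapped, because Rorβ-CRISPR replicate 2 lay above every control library. The log2 fold change was -0.11, with a 95% interval of -0.24 to 0.01 (limma-trend adjusted p = 0.111). The spread of Nfil3 in the Rorβ-CRISPR libraries was 11.0% of the mean, where its reads alone give 3.40%. Without Rorβ-CRISPR replicate 2 it was called lower, at -0.19 (adjusted p = 0.00934), and centred on chromosome 13, with a median of 0.20, at -0.30 (adjusted p = 3.97e-05). The adjusted p ranged over 3.97e-05 to 0.530 in 17 alternatives, and with library size only the value was 0.10.

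**Figure D3:**
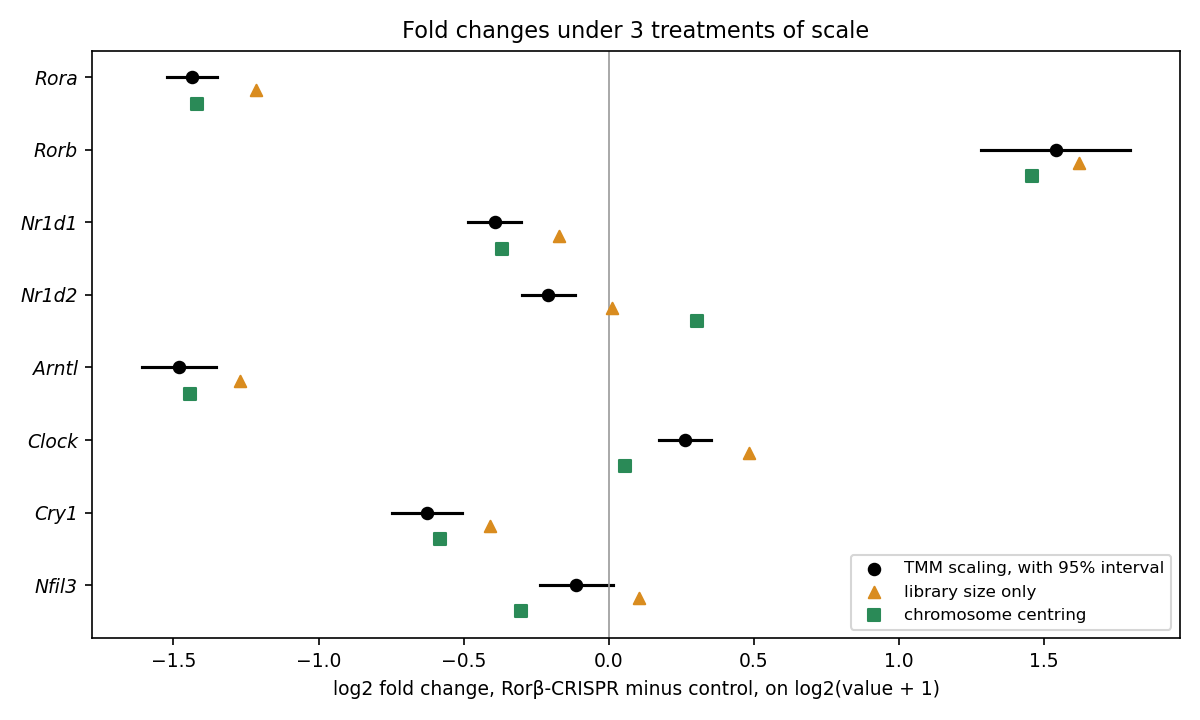
Log2 fold change (Rorβ-CRISPR minus control, on log2(value + 1)) of the 8 tested genes. Circles are the reported values with 95% intervals, triangles the values with library size only and squares those centred on the chromosome. Rora, Nr1d1, Arntl and Cry1 stay below 0 in all 3. Rorb and Clock stay above 0, with Clock at 0.056 when centred. Nr1d2 lies at -0.21, 0.012 and 0.30, and Nfil3 at -0.11, 0.10 and -0.30.

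Of the 9 genes, 8 passed the filter on low values, and 2 were called higher (Rorb and Clock) and 5 lower (Rora, Nr1d1, Nr1d2, Arntl and Cry1). Rorb passed through the Rorβ-CRISPR libraries alone, where it is high, so its place in these counts carries no weight. Without Rorβ-CRISPR replicate 2, with Nfil3 added, 6 were lower. These counts stand beside wide change in the whole table, where 66.2% of 13498 tested rows were called, 32.9% higher and 33.3% lower. In 7 of the 8, Rorb among them, the groups were without overlap, as they were in 68.4% of the rows tested. The size of change set some of them apart from others. In absolute log2 fold change Arntl exceeded 98.5% of tested rows, Rora 98.3%, Cry1 87.9% and Nr1d1 73.6%. Clock exceeded 57.6% and Nr1d2 48.4%, near the middle of the table, and Nfil3 exceeded 28.4%. The median log2 fold change of the 8, Rorb included, was -0.30, against 0.0025 over all tested rows. In the authors' deposited table, the fold of Rorβ-CRISPR over control is 0.363 for Rora, 0.336 for Arntl and 0.635 for Cry1. For Nfil3 the fold in the authors' deposited table is 0.927 (q = 0.489).

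Ratios of reads within a library do not depend on any scaling factor, and 6 pairs were compared. They are not ratios of molecules, since the genes differ in length. Reads of Nr1d1 per read of Rora were 1.17, 1.02 and 1.05 in the Rorβ-CRISPR libraries, against 0.546, 0.517 and 0.491 in the control libraries. The ratio of this repressor to this activator was thus 2.09 times as high in the Rorβ-CRISPR libraries. Reads of Nr1d2 per read of Rora were 1.32, 1.21 and 1.13 in the Rorβ-CRISPR libraries and 0.530, 0.479 and 0.528 in the control libraries, 2.38 times as high. Reads of Arntl per read of Clock were 0.232, 0.210 and 0.215 in the Rorβ-CRISPR libraries and 0.717, 0.817 and 0.818 in the control libraries. The partners of the BMAL1 and CLOCK dimer therefore changed unequally at the RNA level, whatever the scaling. Reads of Cry1 per read of Clock were 0.357 ± 0.00828 in Rorβ-CRISPR and 0.680 ± 0.0599 in control cells (SD, n = 3 each). Between the repressor genes, reads of Nr1d1 per read of Nr1d2 were 0.889, 0.842 and 0.931 in the Rorβ-CRISPR libraries, against 1.03, 1.08 and 0.931 in the control libraries. Here the groups all but met. In each of the 6 pairs, the Rorb to Rora pair included, the groups did not overlap. The exact permutation p (two-sided) was 0.1, adjusted 0.1, which is the smallest this design allows. These ratios use the same reads as the values above, so they are not independent evidence. Of single rows tested, 68.4% were without overlap as well, in scaled values. The share over pairs of genes was not computed. In the Rorb to Rora pair, Rorb had only 1, 3 and 0 reads in the control libraries.

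**Figure D4:**
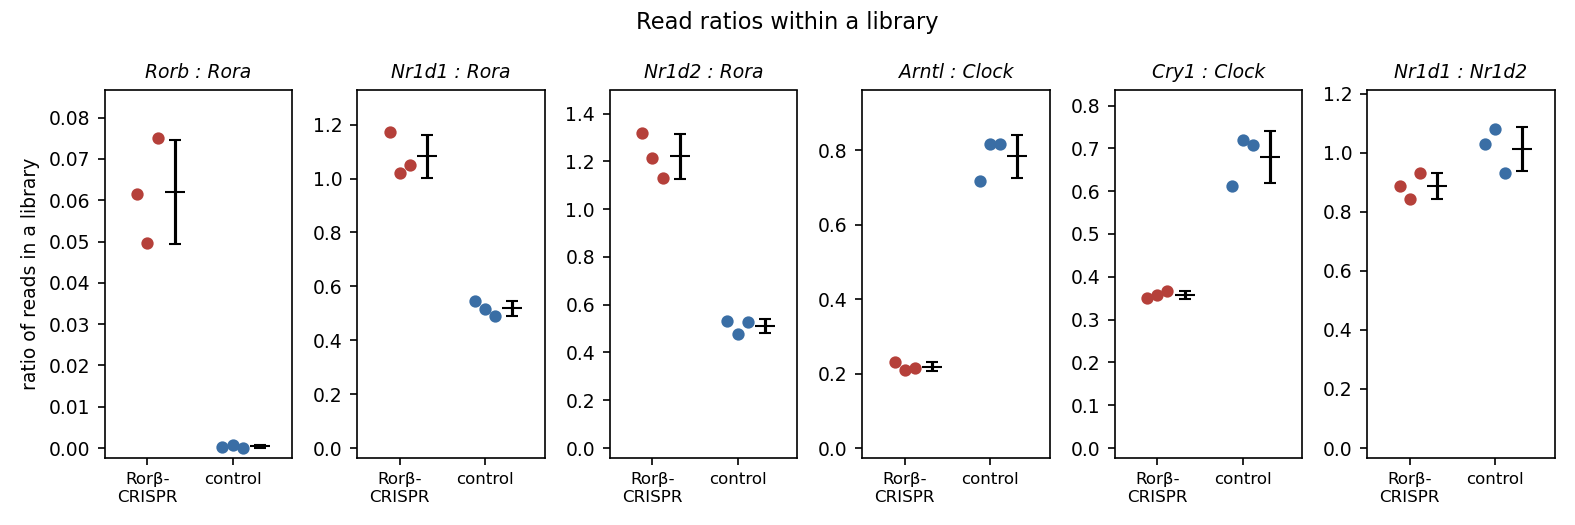
Ratio of the reads of 2 genes within each library, with Rorβ-CRISPR left and control right. Points are libraries and bars the mean and SD of 3 libraries. The ratios to Rora are higher in all Rorβ-CRISPR libraries, and the ratios to Clock are lower.

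Genes of the clock that answer to E-box and D-box elements fell in 5 of 9 tested cases, out of 11 listed, and 1 rose, with a median of -0.30. Over all tested rows 33.3% were called lower and 32.9% higher, with a median of 0.0025. Of this list 4 fell and 3 rose with library size only, where 1975 of all rows were lower and 7291 higher. Bhlhe40, a repressor of E-box genes, was at 48.6 ± 1.26 CPM in Rorβ-CRISPR and 74.8 ± 1.17 CPM in control cells (SD, n = 3 each), and its relative Bhlhe41 was the gene that rose, at 0.42 on the log2 scale. The period genes Per3 and Per1 fell, at -0.56 and -0.48, as did the D-box activator gene Tef, at -0.47, and Cry2, at -0.30. Tef lies on chromosome 15, with a median of -0.26, and was at -0.20 after centring. With library size only Cry2 was at -0.081 and not called, and Bhlhe40, Per3, Per1 and Tef were called lower at -0.39, -0.35, -0.27 and -0.25. Per2, at 0.11, and the D-box activator Dbp, at 0.05, were not called, but with library size only Per2 was called higher, at 0.31. Dbp had 2.94 ± 0.692 CPM in Rorβ-CRISPR and 2.76 ± 0.121 CPM in control cells (SD, n = 3 each). Hlf and Ciart did not pass the filter. Ciart, a circadian repressor gene, had 52, 40 and 67 reads in the Rorβ-CRISPR libraries and 27, 34 and 39 in the control libraries. With TMM factors found without the ribosomal RNA rows it entered the test and was called higher, at 0.31.

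Genes for the enzymes that modify or destroy clock proteins fell in 6 of 8 tested cases and rose in 0, with a median of -0.22, against 33.3% of all tested rows lower and 32.9% higher. With library size only, 2 of them fell and 2 rose, against 1975 rows lower and 7291 higher in the whole table. At an unadjusted p under 0.05 the count of higher genes was also 0 with limma-trend, and it was 0 with edgeR and DESeq2. Usp2, a clock-controlled deubiquitinase gene, was at 1.77 ± 0.202 CPM in Rorβ-CRISPR and 4.39 ± 0.415 CPM in control cells (SD, n = 3 each; log2 fold change -0.96). Gsk3b, Csnk1a1, Csnk1e and Fbxw11 were at -0.26, -0.23, -0.21 and -0.14, and none of these 4 was called with library size only, where Csnk1e and Fbxw11 turned to 0.0096 and 0.085. After chromosome centring Csnk1e was at 0.064. Csnk1d, the gene of a kinase that acts on period proteins, was not called, at -0.01, but was called higher, at 0.21, with library size only.

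Of 11 tested cofactors of the receptors 4 were called higher and 4 lower, with a median of -0.016, which is near the share of all tested rows called (32.9% higher and 33.3% lower). These counts were 6 and 0 with library size only, against 7291 and 1975 of all rows. Ncor1, the gene of the REV-ERB corepressor NCoR, was not called, at -0.0022, with a 95% interval of -0.059 to 0.054. With library size only it was called higher, at 0.22. Hdac3, the deacetylase of that complex, fell, at -0.22, as did Tbl1xr1, a further subunit, at -0.27. The coactivator genes Ncoa2 and Ncoa1 rose, at 0.34 and 0.24, and Ep300 fell, at -0.22. Ncoa2 and Ncoa1 were at 0.56 and 0.46 with library size only. Ncoa2 was at 0.22 once centred on its chromosome. With library size only Tbl1xr1 was at -0.042 and not called, Hdac3 and Ep300 turned to 0.0055 and 0.0047, and after chromosome centring Ep300 was at 0.055. Tbl1x rose, at 0.56, and lies on chromosome X, whose median was 0.65. Centred on that chromosome it was at -0.09 and called lower (limma-trend adjusted p = 0.0139). With chromosome centring 3 of the cofactors were called higher and 5 lower.

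Of 15 other genes reported as targets of RORs or REV-ERBs, mostly in liver, immune cells or retina, 5 passed the filter. Of these, 2 were called higher and 1 lower, where 32.9% of all tested rows were called higher and 33.3% lower. The higher genes, Cyp7b1 and Ccl2, passed the filter only with the Rorβ-CRISPR libraries, where they are high. The count of higher genes in this list therefore carries no weight. Cyp7b1, an oxysterol hydroxylase gene described as a RORα target in liver, rose to 4.44 ± 0.591 CPM in Rorβ-CRISPR, against 0.731 ± 0.265 CPM in control cells (SD, n = 3 each; log2 fold change 1.66). The control libraries were at 0.487, 1.01 and 0.693 CPM, so Cyp7b1 passed the filter through the Rorβ-CRISPR libraries, where it is high. On the log2(value + 1) scale its fold is understated, and it was 2.60 with edgeR, 2.60 with DESeq2 and 2.49 with a pseudocount of 0.1. Ccl2, a chemokine gene, was called higher at 0.37. Its control libraries were at 0.73, 1.35 and 1.24 CPM, so they alone would not have passed it. The call of Ccl2 was lost without control replicate 1 (0.24, limma-trend adjusted p = 0.116) and with DESeq2 (0.62, adjusted p = 0.0789). Insig2, a regulator of sterol synthesis, was called lower at -0.24, but at -0.016 and not called with library size only, and at -0.36 after chromosome centring. Mmp9 was not called, at -0.16, but was called lower without control replicate 2 (-0.22) or without Rorβ-CRISPR replicate 3 (-0.23). Fabp7, the gene of a fatty acid binding protein, was too low for the filter, with 0, 8 and 5 reads in the Rorβ-CRISPR libraries and 25, 30 and 39 in the control libraries. On the reads it was called lower with edgeR (-2.95, adjusted p = 3.06e-07) and with DESeq2 (-3.02, adjusted p = 4.08e-06). Sult1e1 and the retinal gene Nrl had no reads, a count of 0 that leaves room for up to 3 reads per library.

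**Figure D5:**
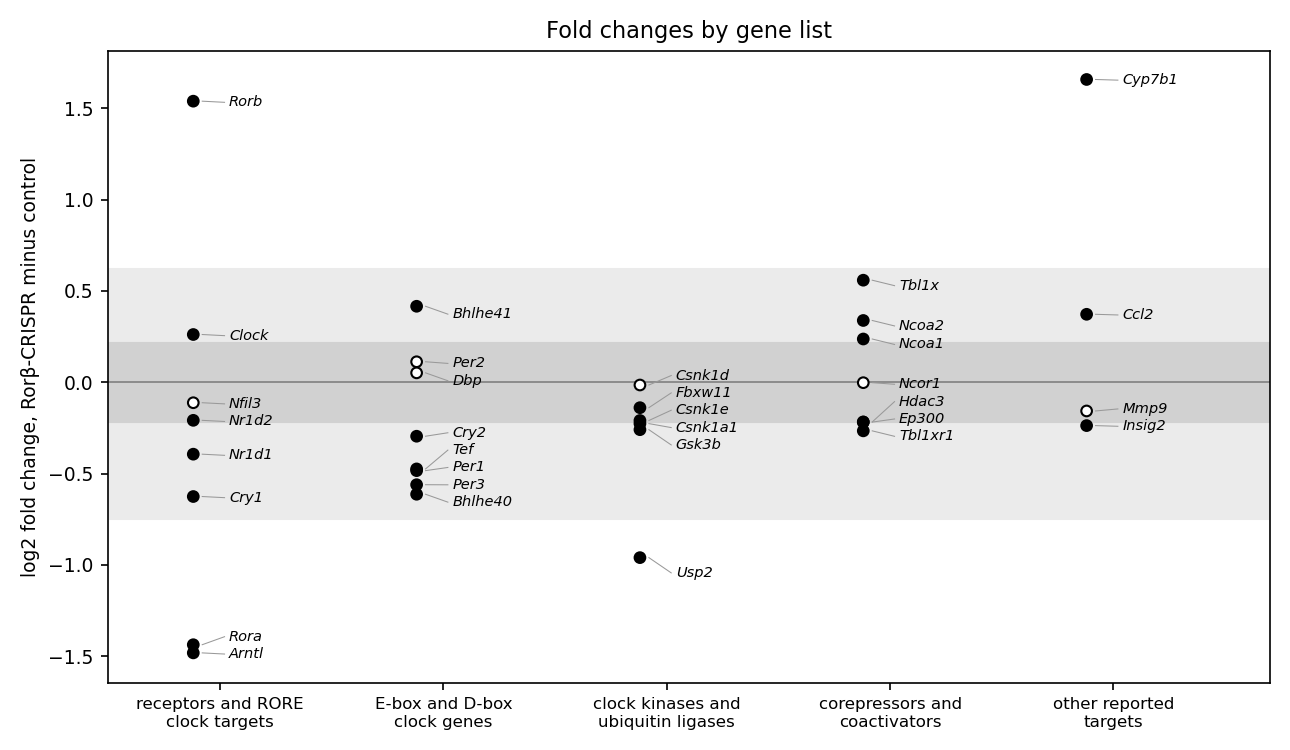
Log2 fold change (Rorβ-CRISPR minus control) of tested genes named from each list, with filled points called at an adjusted p of 0.05 and open points not called. Genes of the lists that the text does not name are not drawn. The bands span the middle 50% and, lighter, the 5th to 95th percentile of all tested rows (-0.75 to 0.62). Rora, Arntl, Rorb, Usp2 and Cyp7b1 lie outside the wider band.

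For Rora, Arntl and Rorb, the genes with the nearest profile over the 6 libraries were found by Euclidean distance of centred log2(value + 1) values. Predicted gene models were left out, and the lowest mean value admitted was smaller for Rorb than for Rora and Arntl. With 2 groups of 3, such a distance mostly reflects a similar difference between the groups. Nearest to Arntl were Fbln5, Thbs2 and Rnase4, at distances of 0.0781, 0.0876 and 0.107. Fbln5, the gene of an elastic fibre protein, had 61.9 ± 2.00 CPM in Rorβ-CRISPR and 175 ± 4.73 CPM in control cells (SD, n = 3 each). Nearest to Rora were Tgfbi, Pdgfrl and Nhsl2, at 0.107, 0.112 and 0.120. Nearest to Rorb were Col23a1, Olfm1 and Myc, at 0.216, 0.251 and 0.267. The profile of Rorb thus had less close neighbours, at values where its own libraries spread by 21.4% of the mean in Rorβ-CRISPR.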

How the data were processed

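RNA of 3 Rorβ-CRISPR and 3 control libraries was analysed from 1 deposited table. Per the submitters' processing notes, TopHat2 2.0.6, HTSeq and build mm9 were used; the annotation, the counting options and the authors' test are not named there. Per the file headers, the authors deposited a TMM-scaled signal per library, a median count and median signal per group, a p-value, a q-value and a fold (ratio) of the groups. In each library 100% of values were whole multiples of 1 read, within 0.01, and the recovered reads gave the deposited median counts in each of 43346 rows.

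The reported test was limma-trend (robust) on log2(value + 1). Rows entered with 3 or more libraries at a value of 1 or above, and p-values were adjusted by Benjamini-Hochberg over 13498 rows at 0.05. Alternatives used edgeR and DESeq2 on the recovered reads, other scalings, filters and pseudocounts, a replicate block and leaving out each library. The scripts were tested on simulated data. RefSeq of GRCm38.p6 gave the promoter sequences and, by symbol, the chromosomes of 12584 tested rows. The 9 genes, the lists and the tests were chosen with earlier results of these data known. Named genes are the 9, up to 6 called genes of smallest adjusted p per list, or enough of highest mean to make 2, and 3 nearest profiles each of Rora, Arntl and Rorb. The rule also held Thra. Some genes of the lists are not reported here. Uncalled or untested list members (Per2, Dbp, Ciart, Hlf, Csnk1d, Ncor1, Mmp9, Fabp7, Sult1e1, Nrl) were named after their values were seen. Tools were DESeq2 1.42.0, edgeR 4.0.16 and limma 3.58.1 in R 4.3.3, and scipy 1.17.1, pandas 2.3.3, numpy 2.4.6 and matplotlib 3.10.9 in Python 3.11.15.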

Additional observations from a re-analysis of the deposited data

How the results depend on the processing

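Of 340 values of 20 results under 17 alternatives, 319 kept their direction and side of the threshold, or for counts stayed within 1.5 times. A threshold of 0.01, the replicate block and the lack of a filter leave each log2 fold change as it was. Direction could not change in those settings. With library size only, the median row was at 0.21 (log2), and 78.7% of calls were higher, against 49.7% as reported. In that scaling Nr1d2 turned to 0.012 and Nfil3 to 0.10, and 7291 rows were higher and 1975 lower, against 4441 and 4501. The E-box and D-box list then had 3 higher, the enzyme list 2 higher and 2 lower, the cofactor list 0 lower and the other targets 0 lower. Chromosome centring moved Nr1d2 to 0.30, Clock to 0.056 and Nfil3 to -0.30. TMM without the 3 ribosomal RNA rows gave 2 higher in the E-box and D-box list. Among the other targets, 1 was higher with DESeq2, and 2 were lower with edgeR, 2 with DESeq2 and 3 without a filter. Leaving out 1 library gave Nfil3 at -0.19 to -0.050, and 1 to 2 higher and 1 to 2 lower among the other targets. The cause of these moves was not tested. With pseudocounts of 0.1 and 0.5 Rorb was at 3.999 and 2.23, and with edgeR and DESeq2 at 5.76 and 5.87.

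Replicate numbers are shared by the groups. Deviations of libraries with the same number correlated at -0.056, 0.167 and 0.127, and those with different numbers at -0.211 to 0.109. These values do not settle whether the numbers pair the libraries, and the reported test did not pair them. With a replicate block no call of the 9 genes changed, and Nfil3 stayed at -0.11 (adjusted p = 0.0932). Depth limits Npas2.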
